A study of Homo sapiens with 8 samples.

Results

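*TKTL1* (transketolase-like 1) and 7 other genes of the pentose phosphate pathway, *TKT*, *TKTL2*, *TALDO1*, *PGD*, *PGLS*, *RPE* and *RPIA*, were followed in a DNA demethylation experiment on colorectal cancer cells. Their probes were taken by the gene name column of the array, and these 8 genes were among 36337 gene names on it. The set was chosen by a measured value, since *TKTL1* was selected on its large rise after 5-aza-dC in the control clones and the others belong to its pathway. Each of the 8 genes had 1 probe of 60 bases, and all 8 probes passed the filter on dim signals.

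The cells were 4 clones of the human colon carcinoma line HCT116. Both control clones, CONT1 and CONT2, were made with a negative control plasmid, whereas the knockdown clones, TET1-KD1 and TET1-KD2, permanently carried artificial miRNAs directed at *TET1*, which encodes a dioxygenase that oxidizes 5-methylcytosine. The knockdown clones differed in their miRNA, and all 4 clones came from drug-selected transfectants. Every clone was measured once untreated and once after 72 h in 1 µM 5-aza-dC, a cytidine analog that traps DNA methyltransferases, which gave 8 one-color arrays with n = 2 clones in each of the 4 conditions. Each line is a single clone, so the spread within a condition is the spread between 2 clones. The array titles and a separate treatment field in the labels conflict, because that field follows the kind of clone, and the titles, which match the described design, were followed.

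The pentose phosphate pathway branches off glycolysis at glucose-6-phosphate. Its oxidative branch makes NADPH, the reducing power for lipid synthesis and for glutathione, and ends in ribulose-5-phosphate. The nonoxidative branch interconverts sugar phosphates, supplying ribose for nucleotides and returning carbon to glycolysis through transketolase and transaldolase. *TKT* encodes transketolase, which transfers carbon units with thiamine diphosphate as cofactor, and *TKTL1* and *TKTL2* are its paralogs. *TKTL1* is known as a gene normally expressed mainly in the testis that has been detected in several carcinomas.

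The start regions of *TKTL1* and *TKT* are shown because DNA methylation lies mainly on cytosines followed by guanine, the CG letters printed in capitals. The arrays also gave values of opposite sign for these paralogs. Sequences are RefSeq windows of 300 bases on GRCh38.p14, from 250 bases before to 50 after an annotated start, and *TKTL1* has 2 such windows. They lie at chrX:154295545-154295844 and chrX:154304920-154305219 on the plus strand for *TKTL1*, and at chr3:53255973-53256272 on the minus strand for *TKT*.
TKTL1 first start: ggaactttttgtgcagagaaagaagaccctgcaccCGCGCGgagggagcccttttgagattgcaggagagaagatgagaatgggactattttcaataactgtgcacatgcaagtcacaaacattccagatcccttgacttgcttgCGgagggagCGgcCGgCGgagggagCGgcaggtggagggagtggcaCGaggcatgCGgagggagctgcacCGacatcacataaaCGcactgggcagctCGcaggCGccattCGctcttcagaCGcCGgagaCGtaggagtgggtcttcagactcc
TKTL1 second start: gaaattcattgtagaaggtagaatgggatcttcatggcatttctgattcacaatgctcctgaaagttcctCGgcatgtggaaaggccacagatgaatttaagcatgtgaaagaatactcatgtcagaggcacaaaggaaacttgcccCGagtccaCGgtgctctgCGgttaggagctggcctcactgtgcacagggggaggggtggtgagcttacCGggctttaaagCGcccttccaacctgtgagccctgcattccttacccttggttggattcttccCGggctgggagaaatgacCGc
TKT start: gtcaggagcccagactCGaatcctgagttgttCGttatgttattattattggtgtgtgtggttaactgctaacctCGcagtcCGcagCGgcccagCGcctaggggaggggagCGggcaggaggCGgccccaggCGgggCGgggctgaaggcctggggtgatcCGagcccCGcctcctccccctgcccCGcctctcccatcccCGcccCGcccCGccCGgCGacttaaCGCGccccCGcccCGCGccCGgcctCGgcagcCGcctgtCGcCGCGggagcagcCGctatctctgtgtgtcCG
The first *TKTL1* window held 18 CG pairs and the second held 8, whereas the *TKT* window held 31. A CG pair reads the same on both strands, and the median over 35116 such windows was 14 pairs. At least 18 pairs were present in 44.5% of all windows, at least 8 in 60.7% and at least 31 in 20.7%. In the other members the count ranged from 24 in *TKTL2* and *RPE* to 44 in *TALDO1*, so both *TKTL1* windows held fewer than every other member. These letters say nothing of which cytosines were methylated in these clones, as methylation was not analysed here.

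The 8 arrays had 29490 to 34276 spots above background, and untreated and treated knockdown clones shared a slide. The treated arrays of CONT1 and CONT2 lay on another slide, where 10 of 10 spike-in RNAs had lower mean signals, by up to 1.00 on the log2 scale, so slide and treatment cannot be told apart in the control clones. *TET1* itself was lower in untreated TET1-KD1 and TET1-KD2, at 8.65 and 9.41 on its brightest probe against 9.70 and 9.75 in CONT1 and CONT2. That log2 difference (-0.69, SE 0.30, limma adjusted p = 0.630), like those of its other probes, did not pass the test. Those probes differed by -0.98 and by -2.14, the latter not above background in untreated knockdown clones. In that comparison limma called 0% of all tested probes. By RT-qPCR the study reported less *TET1* mRNA in both knockdown clones. The epithelial markers *EPCAM*, *KRT8*, *KRT18*, *CDH1* and *CDX2* were above background on all 8 arrays and *VIL1* on 2. Among markers of other cells, *ALB* was above background on 0 arrays and *PECAM1* on 3, but *PTPRC* and *COL1A1* had a probe above background on 8. The summed signal of these 4 markers, in log2, was 8.57 to 8.71 in untreated and 9.61 to 9.96 in treated control clones. In the knockdown clones it was 8.53 to 8.97 and 9.29 to 9.66. For the 6 epithelial markers the sum was 16.85 to 17.11 in untreated and 17.07 to 17.28 in treated control clones. In the knockdown clones the epithelial sum was 16.98 to 17.19 untreated and 17.37 to 17.50 treated. Between treated and untreated control clones limma called 46.2% of all tested probes, and the marker calls are read beside that share. *PTPRC* was higher there on its brightest probe (1.56, limma adjusted p = 0.0058). *COL1A1* (0.99, limma adjusted p = 0.0349) was also higher there. *PECAM1* was at least 2.63-fold higher, given without a test because its probe passed the filter only through the treated control clones. A dimmer *PTPRC* probe read lower instead (-0.74) and was not above background in treated control clones. It is also given without a test, as it passed the filter only through the untreated control clones. *EPCAM* was lower (-0.89), and the other tested epithelial markers were not called. For the knockdown clones limma called 0 of the 8 tested markers, beside 6.18% of all tested probes. At an unadjusted p below 0.05 were 2 of the markers, beside 5731 of all 27287 probes. The part of these shifts in the results was not tested. Signals below are log2 values of the scaled intensity, a scale on which a difference of 1 is a doubling, and levels are compared within a probe and never between probes.

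*TKTL1* was close to background without the drug and far above it with the drug in every clone. Its signal was 5.30 in CONT1 and 4.85 in CONT2 without treatment, and 16.89 and 16.57 after 5-aza-dC. In the knockdown clones it was 5.46 in TET1-KD1 and 5.23 in TET1-KD2 untreated, and 15.56 and 16.40 after treatment. The treated and untreated arrays did not overlap, and the lowest treated value, that of TET1-KD1, lay far above the highest untreated one. The probe lies at chrX:153558624-153558683 in hg19, the build of the array files, and was above background on 8 of 8 arrays. In bulk RNA, fewer cells with a transcript and less of it per cell cannot be told apart.

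In the knockdown clones *TKTL1* rose by 10.63 on the log2 scale (SE 0.34, limma adjusted p = 0.0031, n = 2 clones per condition), a 1587-fold difference. The response was 10.10 in TET1-KD1 and 11.17 in TET1-KD2. These 4 arrays share a slide and did not enter the choice of the gene, although their values were known when the set was proposed. It ranked 6th from the top of 27287 tested probes in these clones. The size rests on a low untreated signal, and with normexp background correction the rise was 9.27 (limma adjusted p = 0.0020). With the methods' t-test, which takes each probe's own spread, the adjusted p was 0.185.

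In the control clones the corresponding difference was 11.65 (SE 0.23), a 3212-fold difference that is given as a description because it chose the gene. By clone it was 11.58 in CONT1 and 11.71 in CONT2, and it also ranked 6th from the top. The difference in response, knockdown minus control, was -1.02 on the log2 scale (SE 0.45), and TET1-KD1 had the smallest response of the 4 clones. Ordered by level, *TKTL1* was highest in treated control clones (mean 16.73, SD 0.23), then in treated knockdown clones (15.98, SD 0.59), untreated knockdown clones (5.35, SD 0.16) and untreated control clones (5.08, SD 0.32). The untreated groups overlapped, with a difference of 0.27 (SE 0.23) that is given without a test because the untreated control arrays also entered the choice of the gene. The treated groups did not overlap, with a mean difference of -0.75 (SE 0.35), but they lay on different slides, and the treated knockdown clones had the widest spread of the 4 conditions.

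**Figure D1:**
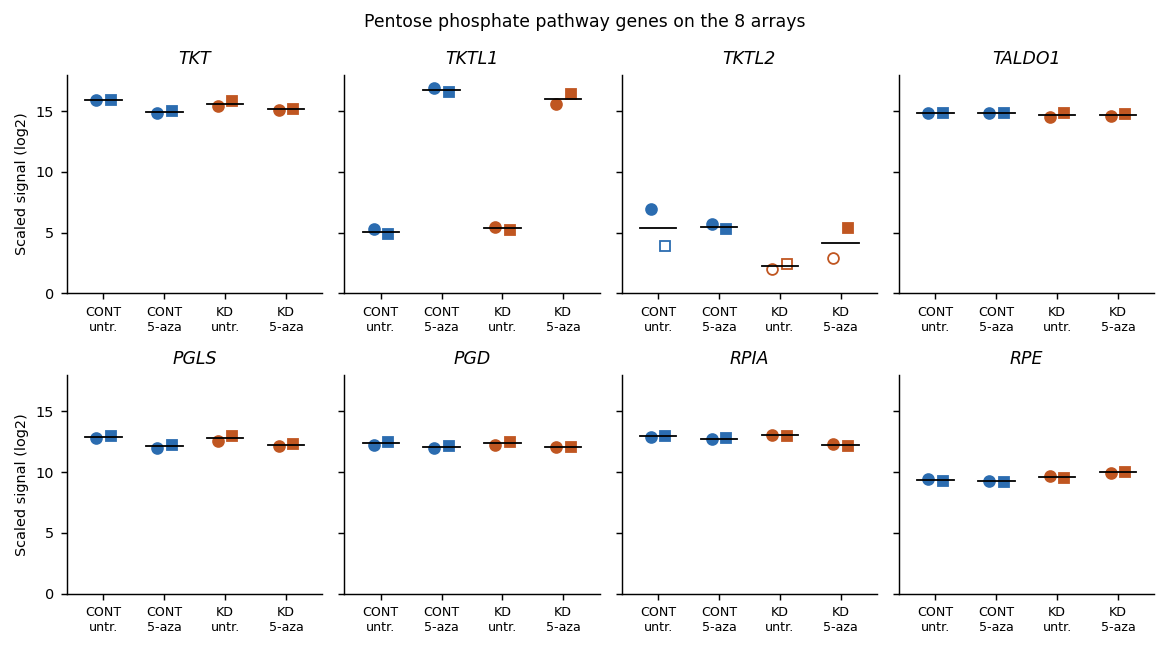
Scaled signal (log2, vertical axis) of the 8 genes by condition (horizontal axis: control clones in blue, knockdown clones in orange, untreated or with 5-aza-dC). Circles are clone 1 and squares clone 2, lines are means of 2 clones, and open symbols were not above background. *TKTL1* lies between 4.85 and 5.46 on untreated arrays and between 15.56 and 16.89 on treated ones.

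*TKT*, the main transketolase gene, was far above background on all 8 arrays, and its values had the opposite sign to those of *TKTL1*. Its signal was 15.89 and 15.88 in untreated CONT1 and CONT2 and 14.88 and 14.98 after treatment. In TET1-KD1 and TET1-KD2 it was 15.40 and 15.81 untreated and 15.08 and 15.17 treated. Treated and untreated arrays did not overlap in either kind of clone, and all 4 clones were lower after treatment. In the knockdown clones every member but *TALDO1* was without overlap. How many of all probes were without overlap was not counted, so nothing is read from it here or for the genes below. The difference was -0.48 in the knockdown clones (SE 0.23, limma adjusted p = 0.321), which did not pass the test, and -0.96 in the control clones (SE 0.12), where it is a description. The control value ranged from -0.58 with a GC trend subtracted to -1.34 without scaling of the arrays.

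*TKTL2*, a further transketolase paralog, was at the edge of detection. It was above background on untreated CONT1, on both treated control arrays and on treated TET1-KD2, which makes 4 of 8 arrays. Its values were 6.91 and 3.90 in untreated CONT1 and CONT2, and 5.70 and 5.29 in the treated ones. In TET1-KD1 and TET1-KD2 it read 2.02 and 2.41 untreated and 2.91 and 5.39 treated. The 2 control clones moved in opposite directions, by -1.20 and 1.39. The knockdown clones differed by 1.93 between treated and untreated arrays (SE 0.87, limma adjusted p = 0.305), a value that did not pass the test and has no fold because the untreated arrays were not well above background. Untreated, its knockdown values were lower than those of control clones (log2 difference -3.18, SE 1.06, limma adjusted p = 0.630), but only CONT1 was above background, so no fold is given and the difference did not pass the test. It ran from -4.69 to -1.68 with an array left out and was -0.94 with an offset of 50.

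*TALDO1* encodes transaldolase, the other enzyme that links the nonoxidative branch to glycolysis. It read 14.86 and 14.82 in untreated CONT1 and CONT2 and 14.81 and 14.84 after 5-aza-dC, and 14.53 and 14.85 in untreated TET1-KD1 and TET1-KD2 against 14.58 and 14.76 after it. Treated and untreated values overlapped in both kinds of clone. The difference was -0.02 in the knockdown clones (SE 0.22, limma adjusted p = 0.971) and -0.01 in the control clones (SE 0.12). Its sign in the knockdown clones changed with the normalization.

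The oxidative branch was represented by *PGLS*, the lactonase of its second step, and *PGD*, the 6-phosphogluconate dehydrogenase that yields ribulose-5-phosphate and NADPH. *PGLS* read 12.79 and 12.95 in untreated CONT1 and CONT2, 12.02 and 12.26 in treated ones, 12.60 and 13.00 in untreated TET1-KD1 and TET1-KD2, and 12.18 and 12.32 in treated ones. All 4 clones were lower with the drug, by 0.41 to 0.76 on the log2 scale, without overlap within a kind of clone. The difference was -0.54 in the knockdown clones (SE 0.23, limma adjusted p = 0.277) and -0.73 in the control clones (SE 0.16). *PGD* read 12.26 and 12.50 in untreated CONT1 and CONT2 and 11.96 and 12.18 in treated ones, and 12.27 and 12.50 in untreated TET1-KD1 and TET1-KD2 against 12.07 and 12.09. Again every clone was lower with the drug, and the mean differences were nearly the same, -0.30 in knockdown clones (SE 0.19, limma adjusted p = 0.435) and -0.31 in control clones (SE 0.16). Neither gene passed the test in the knockdown clones.

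*RPIA* and *RPE* both act on ribulose-5-phosphate: *RPIA* encodes the isomerase that makes ribose-5-phosphate, and *RPE* the epimerase that makes xylulose-5-phosphate for transketolase. *RPIA* read 12.90 and 13.00 in untreated CONT1 and CONT2 and 12.70 and 12.81 in treated ones. In TET1-KD1 and TET1-KD2 it was 13.08 and 12.96 untreated and 12.29 and 12.11 treated, the widest gap after *TKTL1* and *TKTL2*. The difference was -0.82 in the knockdown clones (SE 0.19, limma adjusted p = 0.110), and -0.19 in the control clones (SE 0.13). It did not pass the test as fitted on 4 arrays, but it did when all 8 arrays shared 1 estimate of the spread (limma adjusted p = 0.0194).

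*RPE* read 9.44 and 9.29 in untreated CONT1 and CONT2 and 9.31 and 9.21 in treated ones, ranges that overlap. In TET1-KD1 and TET1-KD2 it was 9.67 and 9.50 untreated and 9.96 and 9.99 treated, without overlap. The difference was 0.39 in the knockdown clones (SE 0.19, limma adjusted p = 0.325) and -0.11 in the control clones (SE 0.13). With a straight line through the spike-ins the control value became 0.39. *RPIA* and *RPE*, which share a substrate, thus had values of opposite sign in both knockdown clones, although neither passed the test there.

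**Figure D2:**
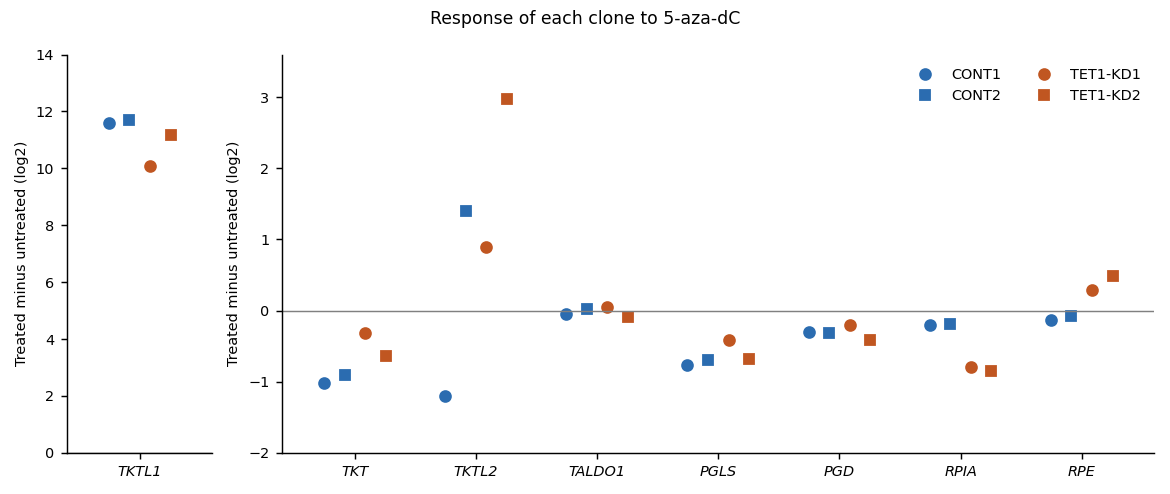
Treated minus untreated signal (log2, vertical axis) of each clone for *TKTL1* (left, own scale) and the other 7 genes (right). The 2 control clones are blue and the 2 knockdown clones orange. *TKTL1* lies between 10.10 and 11.71 in the 4 clones, *TKT*, *PGLS*, *PGD* and *RPIA* lie below 0 in every clone, and *RPE* lies below 0 in the control clones and above 0 in the knockdown clones.

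Counted over the set, 1 of 8 genes was called in the knockdown clones (*TKTL1*, higher), beside 6.18% of all tested probes, of which 5.91% were higher and 0.268% lower. The median of the other 7 genes was -0.30 on the log2 scale, with 5 below 0, against -0.07 over all tested probes. In the control clones *TKTL1* was higher and *TKT* and *PGLS* lower by the same threshold, beside 46.2% of all probes called and 24.5% called lower, and because that contrast chose the set nothing is read from this count. The median of the 7 others there was -0.19 against -0.08. Without scaling of the arrays the median of all probes in the control clones was -0.46, and with a line through the spike-ins it was 0.41, so small control differences depend on the scaling.

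Without drug, 0 of the 7 genes other than *TKTL1* were called between knockdown and control clones, beside 0% of all probes. *TKTL1* is left out of this count, as the untreated control arrays entered its choice. Over all probes limma called 0 of 27287, with 2053 at an unadjusted p below 0.05. With 1 fit over all 8 arrays 4 probes were called, and with the methods' t-test 1 was, none of them a member. Apart from *TKTL2*, the differences ranged from -0.28 in *TKT* to 0.27 in *TKTL1*, and the adjusted p-values of the 6 genes other than *TKTL1* and *TKTL2* ran from 0.670 to 0.991 in limma. With 2 clones on each side, a missed threshold does not show that the enzymes were equal.

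No other tested probe near *TKTL1* on chromosome X was called in the knockdown clones, beside 6.18% of all tested probes. Within 250 kb of its probe 28 probes with 21 names in the array's hg19 annotation were considered, and 21 of them were tested. The median difference of these 21, *TKTL1* included, was -0.19. *FLNA*, which encodes filamin A and has the nearest tested probes, differed by 0.31 at 18.6 kb (SE 0.23, limma adjusted p = 0.493) and by -0.44 at 31.2 kb (SE 0.51, limma adjusted p = 0.666). *OPN1MW* and *TEX28*, on the other side of *TKTL1*, were too dim on these arrays to be tested.

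**Figure D3:**
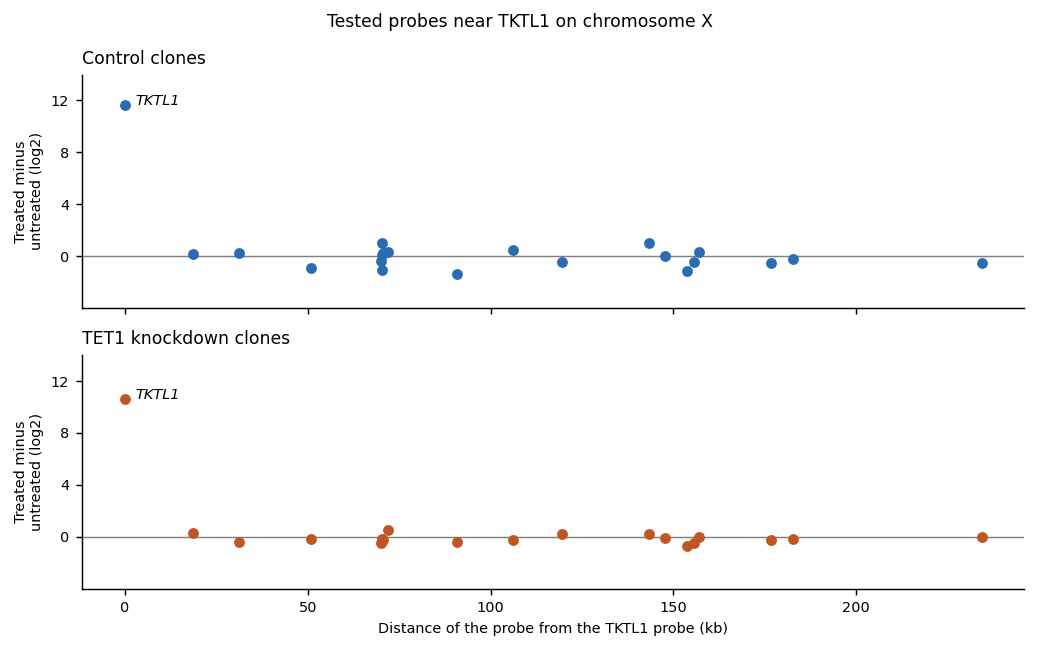
Treated minus untreated signal (log2, vertical axis) of the 21 tested probes considered within 250 kb of the *TKTL1* probe, by distance in kb (horizontal axis), in control clones (top) and knockdown clones (bottom). *TKTL1* stands at 11.65 and 10.63, and the other probes lie between -1.36 and 1.03 in control clones and between -0.74 and 0.53 in knockdown clones.

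Further genes of the pathway and of ribose use were described from a list of 15 names, of which 14 had a tested probe and *RPEL1* had no probe of that name. In the knockdown clones 0 of 14 were called, beside 6.18% of all tested probes. The median was -0.17 against -0.07 over all probes, and 10 were below 0. The clone number pairs the treated with the untreated array of a clone. This replicate block called 2299 of 27287 probes higher and 226 lower. With it 1 of the 14 was called, *H6PD* (limma adjusted p = 0.0384), which encodes a hexose-6-phosphate dehydrogenase of the endoplasmic reticulum. Its probe was above background on 0 of the 4 knockdown arrays, so no difference in level is read from that call. *FBP1*, a gluconeogenic phosphatase picked out after its values were seen, read 3.66 and 3.33 in untreated knockdown clones, not above background, and 6.12 and 4.73 in treated ones, which were at least 2.04-fold higher (limma adjusted p = 0.145). Its fitted difference of 1.93 became 0.64 with an offset of 50 and did not pass the test. In the control clones 2 of 14 were higher and 4 lower, a share called near the 46.2% of all probes, and these were named after their values were seen. *C12orf5* (TIGAR), a phosphatase that diverts glucose toward the pathway, was higher by 1.69 (SE 0.14, limma adjusted p = 0.0039), and *PGM2* by 0.58 (SE 0.16, limma adjusted p = 0.0458). The *PGM2* call was lost in 8 of 17 alternatives (0.13 to 0.58, among them the replicate block, limma adjusted p = 0.0510) and with any 1 of the 4 control arrays left out (0.44 to 0.72, limma adjusted p from 0.153 to 0.346). *DERA*, *PRPS1L1* and *PRPS2* were lower, with log2 differences from -1.11 to -0.79. *PRPS1*, not called on its brightest probe (-0.22), was called lower on a dimmer one (-0.54, limma adjusted p = 0.0439). *H6PD*, counted among the 4, was at least 1.63-fold lower, as it was not above background in treated control clones. That difference is given without a test, because its probe passed the filter only through the untreated control clones. The difference in response between the kinds of clone was called in 0 of the 14, with a lowest limma adjusted p of 0.140. At an unadjusted p below 0.05 were 3 of the 14, beside 6742 of all 27287 tested probes.

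NADPH-producing enzymes and targets of NRF2, the transcription factor of the oxidative stress response, made a second list of 10 genes, all tested. In the knockdown clones 0 of 10 were called, beside 6.18% of all tested probes. Of the 10 genes 9 were below 0, with a median of -0.47 against -0.07 over all probes. With the replicate block 1 was called lower, *GCLC*, the catalytic subunit of the enzyme that starts glutathione synthesis (log2 difference -1.01, limma adjusted p = 0.0474). *SLC7A11*, which imports cystine, had the lowest value and is named for it after the fact (-1.35, SE 0.30, limma adjusted p = 0.105). In the control clones 0 of 10 were higher and 5 lower, beside 24.5% of all probes called lower, namely *ME1*, *IDH1*, *GCLM*, *NQO1* and *SLC7A11*, with log2 differences from -1.67 to -0.89. *GCLM*, the modifier subunit beside *GCLC*, differed in response, with -1.29 in control clones and 0.01 in knockdown clones (difference 1.30, SE 0.23, limma adjusted p = 0.0347). That call was lost without any 1 array (1.19 to 1.42, limma adjusted p up to 0.143) and in 4 of 17 alternatives (0.96 with the spike-in line to 1.30 without a filter on dim probes, limma adjusted p up to 0.0756). The treated control arrays lay on another slide, so slide and treatment cannot be told apart in the *GCLM* difference. In this list 1 of 10 was called for a difference in response. How many of all probes were called for it was not counted, but 6742 of all 27287 had an unadjusted p below 0.05. *GCLC* had the opposite sign, with a difference in response of -1.30 (SE 0.35, limma adjusted p = 0.0869) that did not pass the test. Without drug 0 of the 24 genes of both lists were called between the kinds of clone, beside 0% of all probes.

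**Figure D4:**
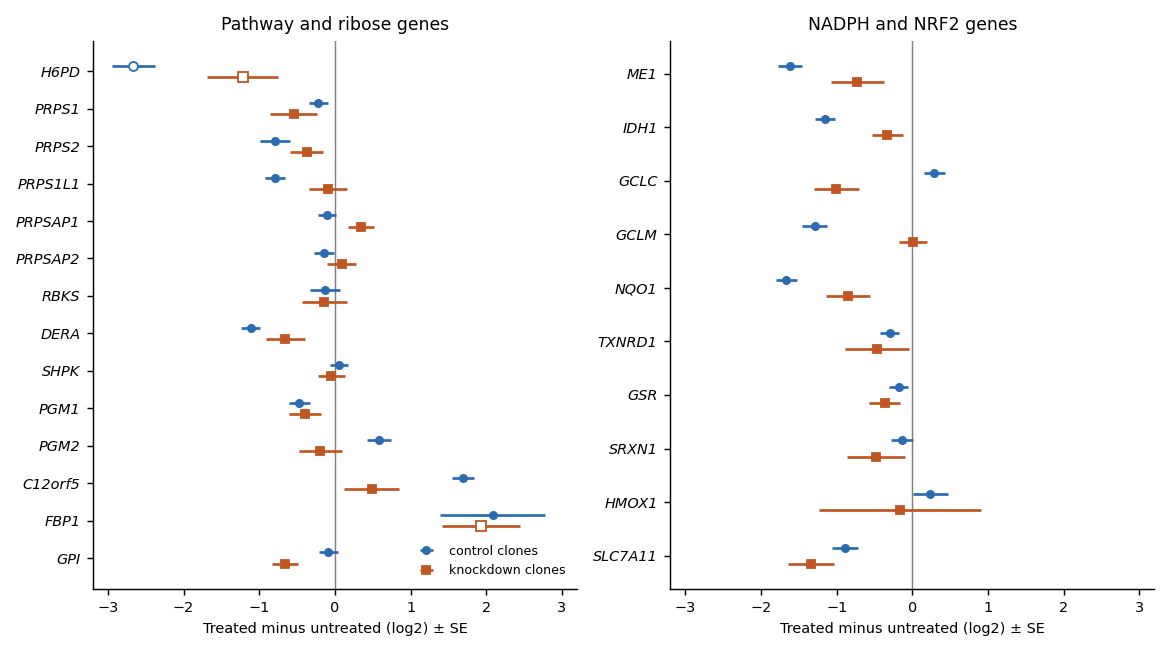
Treated minus untreated signal (log2, horizontal axis, bars are ± SE of the limma fit) of the 14 pathway and ribose genes (left) and the 10 NADPH and NRF2 genes (right), in control clones (blue circles) and knockdown clones (orange squares), n = 2 clones per condition. Open symbols mark a condition not above background, where the fitted value is no measured difference. In the right panel 9 of the 10 NADPH and NRF2 genes lie below 0 in the knockdown clones.

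The genes whose pattern was closest to *TKTL1* over the 8 arrays were *RHOXF2*, *ZFP42*, *OOEP*, *NEFH* and *MAGEA9*. Likeness was the root mean square difference from *TKTL1* after each probe's mean was subtracted, over 15422 gene symbols, and it ran from 0.30 in *RHOXF2* to 0.70 in *MAGEA9*. Their untreated signals were at most 4.06 and their treated signals at least 11.46. They were above background on 0 of 4 untreated and 4 of 4 treated arrays. Treated knockdown clones were at least 171-fold higher in *NEFH*, and at least 183-fold to 351-fold higher in the others, given without a test because likeness over these arrays chose the genes. A bound takes the lowest signal above background on the untreated arrays. *RHOXF2* is a homeobox gene of the male germline, *ZFP42* a zinc finger gene known from embryonic stem cells, *OOEP* an oocyte protein gene, *NEFH* a neurofilament gene and *MAGEA9* a cancer-testis antigen gene. *RHOXF2* and *MAGEA9* have near-identical copies, so their probes are uncertain between copies. None of the other 7 pathway genes was among these 5.

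**Figure D5:**
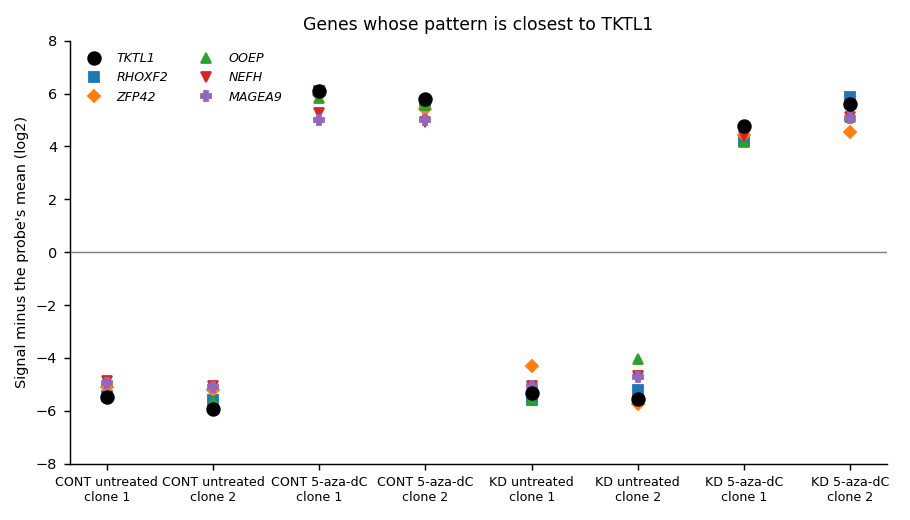
Signal minus the mean of its own probe (log2, vertical axis) on each of the 8 arrays (horizontal axis) for *TKTL1* (black circles) and the 5 genes with the most similar pattern. All 6 genes lie below 0 on the 4 untreated arrays and above 0 on the 4 treated arrays, and *TKTL1* was lower in treated TET1-KD1 than in treated TET1-KD2.

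The 60-base probe of *TKTL1* shared no run longer than 6 bases with the probe of *TKT*, and none longer than 6 with that of *TKTL2*.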

How the data were processed

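Expression was measured with Agilent one-color arrays in 4 HCT116 clones, untreated and treated. The authors deposited spot intensity values from Feature Extraction 10.7, with background subtracted and arrays not normalized to each other, and a table that holds the same intensities rounded. A text column of spot annotation, deposited as another kind of value, gave gene names and hg19 positions. Arrays were grouped by their titles. Processed signals were divided by each array's 75th percentile and rescaled to the geometric mean of the percentiles, values under 1 were set to 1, and log2 was taken. Spots flagged as outliers were left out, and spots of 1 probe were averaged. Of 50599 probes, 27287 were tested, namely those detected over background in both clones of 1 condition or more. The brightest tested probe stood for a gene.

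limma 3.58.1 in R 4.3.3 was run on the 4 arrays of a comparison across all tested probes, with Benjamini-Hochberg adjustment at 0.05, and on 8 arrays for differences in response. The functions were tested on simulated data. The clone number pairs treated and untreated arrays, as both come from 1 clone. The correlation of their deviations was 0.198 in control and 0.476 in knockdown clones. The members and gene lists were chosen with earlier results of these data known. Named genes were the members, *TET1*, called genes of the lists, 5 genes with the pattern closest to *TKTL1*, and genes within 250 kb. Alternatives concerned background correction, scaling, filters, the offset, outlier spots, the replicate block, the fit, GC content, spike-ins and each array left out. For genes outside the set, these alternatives were run after their values had been seen. The number of clones limits the precision. The limma p-values rest on the spread between 2 clones of a condition, drawn toward a spread shared by all tested probes. Only the t-test takes each probe's own spread. Methylation was not analysed here. Some genes of the pathway list and of the region near *TKTL1* are not reported here. Plots were drawn with matplotlib 3.10.9.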

Additional observations from a re-analysis of the deposited data

Results flagged for a closer look

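*RPE*, the epimerase gene, was flagged because both control clones were lower after 5-aza-dC and both knockdown clones higher. CONT1 and CONT2 responded by -0.14 and -0.08, and TET1-KD1 and TET1-KD2 by 0.29 and 0.49. The mean response of the knockdown clones thus exceeded that of the control clones by 0.50 on the log2 scale. Over all tested probes the quartiles of this difference were -0.41 and 0.56, so the *RPE* value lay between them. How many other probes had this pattern of signs was not counted. The *RPE* difference was not tested, because the set was chosen on the control contrast. The treated control clones were measured on another slide than the rest, and slide and treatment cannot be told apart there. With a straight line through the spike-ins the control value was 0.39 instead of -0.11.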

How the results depend on the processing

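The rise of *TKTL1* in the knockdown clones had the same direction in all 17 alternatives, from 9.27 to 10.69 on the log2 scale, and from 10.21 to 11.05 with each array left out in turn. It passed the threshold in all but the methods' t-test with Benjamini-Hochberg adjustment (10.63, adjusted p = 0.185), which called 0 members and 0 probes, against 2413 higher and 2087 lower unadjusted. The count of members called was otherwise 2 with all 8 arrays in 1 fit, 3 with the unadjusted t-test and 2 with a GC trend subtracted and the replicate block, the added genes being *RPIA* and, in the t-test, *RPE*. It was 1 to 2 with an array left out, where *RPIA* was called without treated TET1-KD1 (adjusted p = 0.0361). Those fits take the spread from all remaining arrays. The count of linked genes was 2 under the replicate block, 2 with all arrays in 1 fit, 2 with the unadjusted t-test, 5 with GC trend and block, and 0 to 2 with an array left out, where *NQO1* and *SLC7A11* were called without untreated TET1-KD1 and *DERA* and *GCLC* without treated TET1-KD1. The replicate block changed no other call of members or linked genes in the knockdown clones, and *TKTL1* passed with it (adjusted p = 0.0036).

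The *TKTL1* difference in the control clones moved to 10.11 with normexp, 10.34 with an offset of 50, 11.24 with quantile normalization, 11.27 without scaling, 11.54 with the GC trend subtracted, with or without the replicate block, and 11.41 with the spike-in line, and ran from 11.42 to 11.87 with an array left out. The interaction of *TKTL1* ranged from -1.16 to -0.58. The sign of small values turned. *TALDO1* in the knockdown clones was 0.039 with normexp, 0.15 with quantile normalization, 0.036 without scaling and 0.038 with the spike-in line, and ran from -0.18 to 0.14 with an array left out. Untreated, *PGD* was -0.041 with normexp and -0.06 with quantile normalization (-0.11 to 0.13 with an array left out), *PGLS* was 0.024 with the spike-in line (-0.27 to 0.13), and *TALDO1* ran from -0.31 to 0.012. Of the members other than *TKTL1*, which is given there without a test, none was called in the untreated comparison in any alternative. In the control clones 5909 probes were higher and 6690 lower, against 3703 and 10125 without scaling and 10620 and 2442 with the spike-in line. In the knockdown clones 1614 were higher and 73 lower, against 2321 and 1571 with GC trend and block. Signals close to background limit *TKTL2* and the size of the *TKTL1* rise.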
